A study of Mus musculus with 2 samples.

Results

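The 56 genes described here encode the machinery of mitosis and cytokinesis in the mouse: the Cdk1 kinase and its cyclins, the mitotic kinases, the spindle checkpoint, the kinetochore, mitotic kinesins, condensin and the contractile ring. They were chosen by symbol, with no measured value in the rule but with earlier results of these data known. By Ensembl identifier they matched 56 of the 43346 mouse gene rows. They were measured in fetal liver taken at embryonic day 11.5 from strain B6NCrl, with no mutation or treatment given in the labels. The 2 sequencing libraries are biological replicates of that 1 group, so the labels give no contrast, and the comparisons below are between replicate 1 and replicate 2. The tissue was a pool of livers from male and female embryos, and the label of replicate 1 gives 109 embryos. RNA in the amount of 1 cell-equivalent entered each library and was amplified by SmartSeq, which copies polyadenylated RNA from its 3' end into cDNA and multiplies it by PCR. Each library is therefore a very small draw from a large pool. No test and no p-value can be had from 1 group of 2 libraries, and a 2-fold rule of size was used instead.

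Mitosis starts when Cdk1, bound to cyclin B, is switched on, and it ends when the anaphase-promoting complex, a ubiquitin ligase, marks cyclin B and securin for destruction. In between, condensin compacts the chromosomes, kinetochores join them to spindle microtubules, and the checkpoint delays anaphase until every kinetochore is attached. Most of these genes are transcribed in the G2 and M phases, and the fetal liver at this age is a growing organ full of dividing erythroid precursors and hepatoblasts.

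Many promoters of G2 and M phase genes carry a short element called the cell cycle genes homology region, with the core TTTGAA or TTTAAA, often downstream of CCAAT boxes, which are bound by the factor NF-Y. RefSeq promoters (build GRCm38.p6, the assembly also called mm10) were at hand for 48 of the 56 genes, and for none of Aurkb, Ccna2, Cdc25c, Incenp, Kif20a, Smc4, Spc24 and Tpx2. The window from 100 bases before the RefSeq start to 30 bases after it was searched on both strands. The windows below belong to the gene with the highest mean level in each of 6 functional groups among those whose window held the hexamer. Its nearness to the start in them follows from that choice. The RefSeq start lay downstream of the gene start in GENCODE release M21 by 92 bases for Cks1b, 31 for Ube2c, 109 for Cenpa and 51 for Kif22. For Top2a the distance was 0, and for Plk1 it was -4, which is upstream. They are Cks1b (chr3:89418262-89418391, minus strand), Ube2c (chr2:164769829-164769958, plus strand), Top2a (chr11:99024160-99024289, minus strand), Cenpa (chr5:30666786-30666915, plus strand), Kif22 (chr7:127042391-127042520, minus strand) and Plk1 (chr7:122159335-122159464, plus strand). Each is written 5′ to 3′ on the strand of its gene, with the hexamer in capitals, where TTCAAA is TTTGAA read on the other strand.
Cks1b: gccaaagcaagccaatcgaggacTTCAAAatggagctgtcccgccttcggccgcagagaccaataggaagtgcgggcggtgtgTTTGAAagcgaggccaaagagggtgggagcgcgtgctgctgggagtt
Ube2c: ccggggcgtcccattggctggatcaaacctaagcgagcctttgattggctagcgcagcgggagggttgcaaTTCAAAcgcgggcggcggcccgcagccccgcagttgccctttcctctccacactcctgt
Top2a: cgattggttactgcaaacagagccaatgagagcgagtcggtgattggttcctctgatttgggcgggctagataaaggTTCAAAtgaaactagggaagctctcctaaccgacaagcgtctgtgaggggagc
Cenpa: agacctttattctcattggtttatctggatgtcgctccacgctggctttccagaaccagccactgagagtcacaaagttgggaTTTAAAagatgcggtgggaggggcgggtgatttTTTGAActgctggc
Kif22: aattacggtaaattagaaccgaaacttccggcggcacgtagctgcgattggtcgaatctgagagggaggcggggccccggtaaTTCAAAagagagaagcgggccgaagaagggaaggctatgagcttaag
Plk1: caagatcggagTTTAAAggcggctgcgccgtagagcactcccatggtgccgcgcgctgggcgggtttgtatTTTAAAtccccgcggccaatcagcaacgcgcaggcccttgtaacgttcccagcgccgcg

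The hexamer lay in the window of 32 of the 48 members, or 66.7%. It lay in 4 of 26 DNA replication genes with a promoter entry (15.4%), in 7.94% of the 4698 other genes that reached a TPM of 1 in each library, and in 13.4% of the 26977 other genes of the table. TPM is the relative abundance of a transcript after correction for its length. TTTGAA by itself was in 27 members (56.3%) and TTTAAA in 6 (12.5%). CCAAT was also in 32 members (66.7%), against 50% of the DNA replication genes and 29.1% of the 4698 other genes. Both motifs were in 27 members (56.3%), against 7.69% of the DNA replication genes and 2.38% of the other genes. A gene with several promoter entries counted once if any of them held the motif. The motifs shared bases in 2 of the 53 promoter entries of members. In the whole 300 bases of the table the hexamer was in 79.2% of members and 22.6% of the other genes. The members' windows had a median G and C content of 60.4%, against 64.6% in the other genes.

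The positions of the matches were uneven along the promoter. For the bins of 25 bases, only the first promoter entry of each gene was used. In the first 25 bases after the start, 33.3% of the members held a hexamer, against 1.04% of the other genes, and in the 25 bases before it 20.8% did, against 1.45%. CCAAT was most frequent in the members from 75 to 50 bases before the start, at 33.3% against 9.56%. By function, the hexamer was in all 4 cytokinesis genes, 6 of 7 kinesins, 4 of 6 genes of the cyclin-Cdk1 core, 7 of 11 kinetochore genes, 3 of 4 mitotic kinase and passenger genes, 4 of 8 checkpoint and anaphase genes, 3 of 6 condensin and chromosome structure genes and 1 of 2 spindle assembly genes. Neither motif was in the windows of 11 members: Birc5, Bub1b, Cenph, Cenpm, Kif2c, Mad2l1, Ncaph, Nuf2, Nusap1, Pttg1 and Smc2. Members with the hexamer had a median mean TPM of 65.5 (n = 32) and those without it 65.2 (n = 16). The median was 106 TPM with both motifs (n = 27), 19.1 TPM with the hexamer alone (n = 5), 29.1 TPM with CCAAT alone (n = 5) and 70.1 TPM with neither (n = 11). A match says only that these letters are there.

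**Figure D1:**
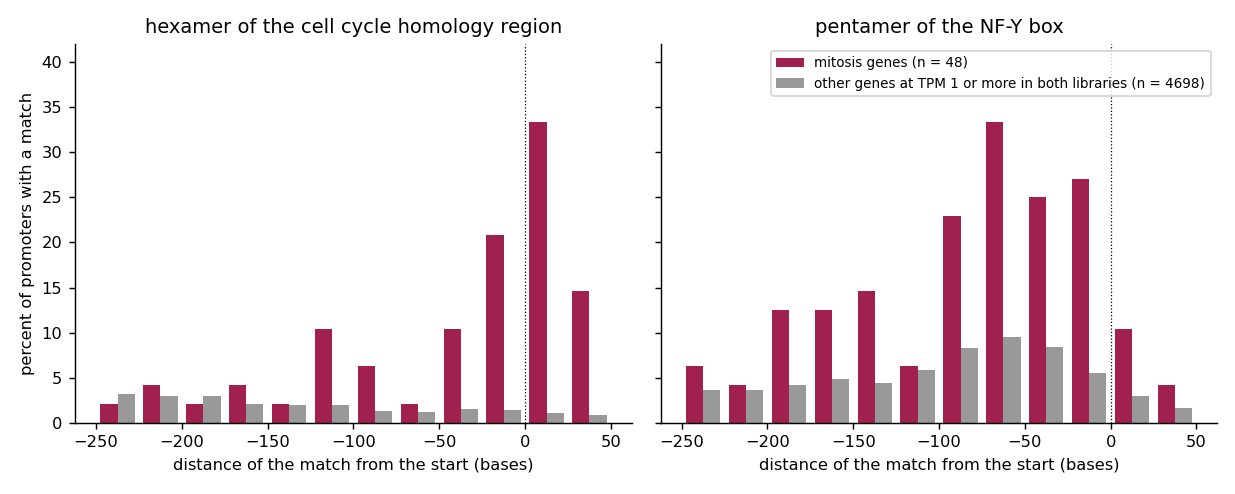
Percent of promoters with a match (vertical axis) in bins of 25 bases by distance from the RefSeq start (horizontal axis, bases), for 48 mitosis genes (red) and 4698 other genes that reached a TPM of 1 in each library (grey). Only the first promoter entry of each gene was used. The hexamer of the members peaks in the first 25 bases after the start at 33.3%, and the pentamer bound by NF-Y peaks from 75 to 50 bases before it at 33.3%.

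The total expected count, an estimate of the reads assigned to genes, was 33289699 in replicate 1 and 32607453 in replicate 2. Genes at a TPM of at least 1, the level called detected here, numbered 8922 in replicate 1 and 8342 in replicate 2. The share of TPM on spike-in RNAs was 5.83% for replicate 1 and 7.68% for replicate 2. As a check of the tissue, all 10 erythroid markers and 9 of 10 hepatoblast markers were detected in both libraries, with summed TPM of 43621 and 39412 for the erythroid list and 12039 and 10532 for the hepatoblast list. Hnf4a, a defining factor of hepatoblasts, was at 34.8 TPM in replicate 1 and listed at 0 in replicate 2. Of 10 heart muscle markers, 2 were detected in both libraries and 6 in replicate 2 alone, with a summed TPM of 50.3 in replicate 1 and 318 in replicate 2; Myl7 was at 0 and 93.5, and Nppa and Myh7 were at 0 in both. Of 7 mesenchymal markers, 5 were detected in both, with sums of 216 and 479 TPM. Of 10 endothelial and macrophage markers, 5 were detected in both, with sums of 361 and 174 TPM. The part of these other cell types in any difference below was not tested.

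All 56 mitosis genes were detected in replicate 2 and 54 of them in replicate 1, with Cdc25c and Kif2c as the exceptions. Over all 10783 mouse genes detected in either library, 60.1% were detected in both. That share follows the level, and was 79.8% over genes with a mean of at least 10 TPM, the range of all members, and 98.7% over those of at least 50 TPM. Together the members held 7124 TPM in replicate 1 and 6798 TPM in replicate 2, which is 0.712% and 0.680% of all transcripts (0.696% ± 0.0231, SD, n = 2). The summed share thus differed little between libraries in which many single members differed. In reads the members held 0.962% of replicate 1 and 1.05% of replicate 2, with a median of 4169 and 5067 reads a gene, and 48 members had at least 1000 reads in both libraries. The median member was at 69.0 TPM in replicate 1 and 84.5 TPM in replicate 2. All 56 had a mean of at least 10 TPM, 36 at least 50 TPM, 24 at least 100 TPM, and 15 were among the 1000 genes with the highest mean. On the log2(TPM + 1) scale the median level was 6.02 for the members, against 4.94 for all 6801 genes with a mean of at least 10 TPM. In these tissue pools a smaller number of dividing cells and less RNA in each of them cannot be told apart.

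**Figure D2:**
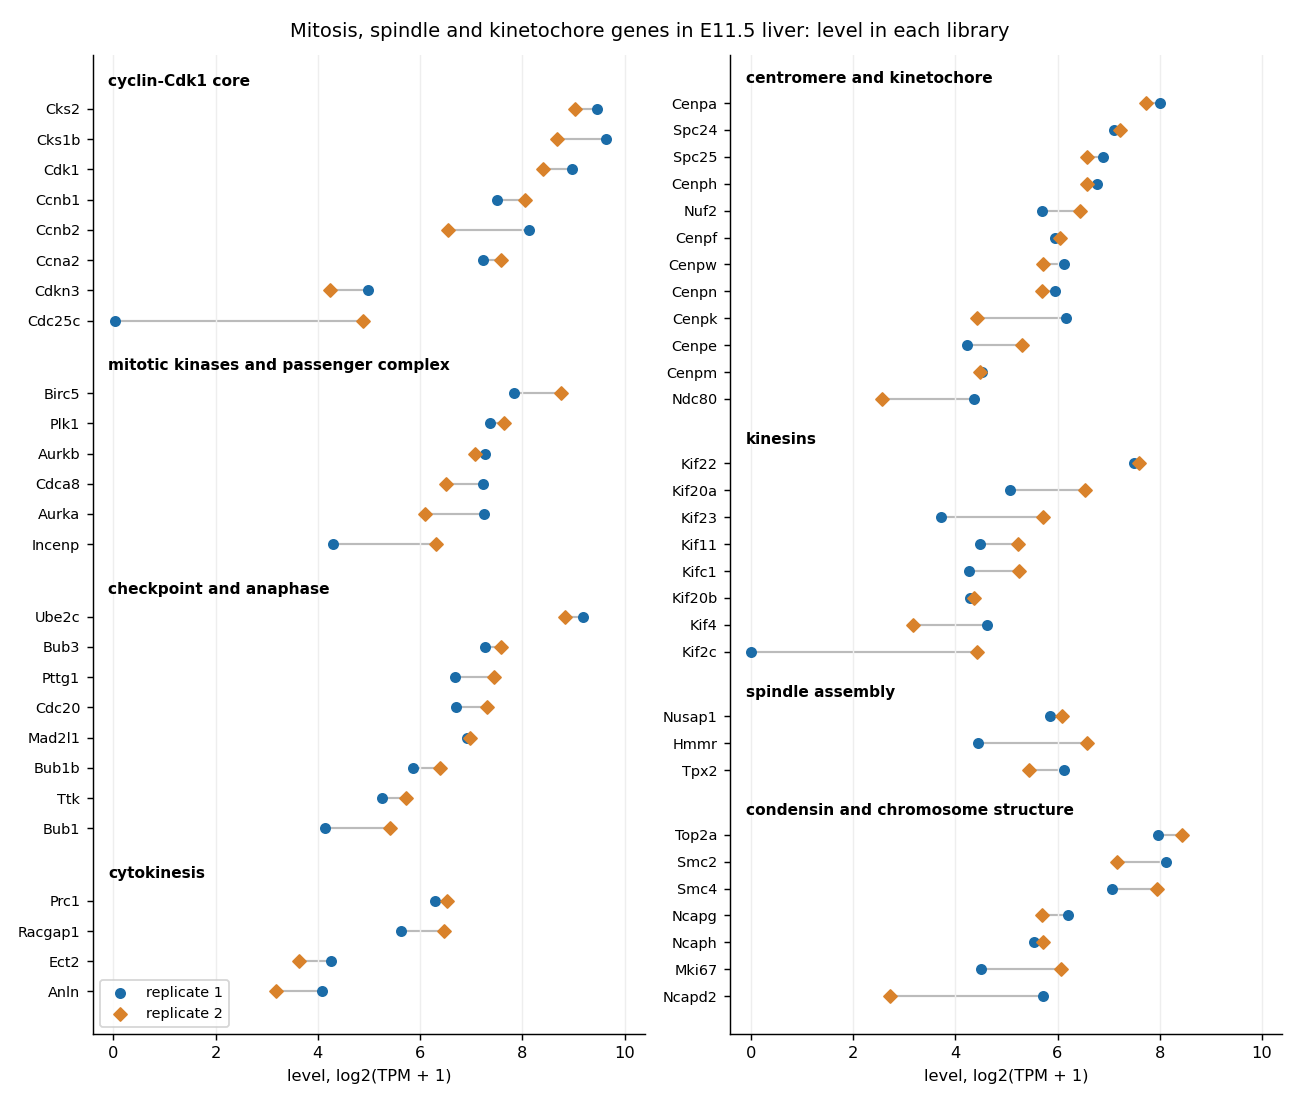
Level of each of the 56 mitosis genes on the log2(TPM + 1) scale (horizontal axis) in replicate 1 (blue circles) and replicate 2 (orange diamonds), by functional group and ordered by mean TPM. Cks2, Cks1b and Ube2c lie at the top end, and the widest gaps belong to Cdc25c and Kif2c, which are at or near 0 in replicate 1.

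The 8 genes of the cyclin-Cdk1 core held the largest part of the members' TPM among the 8 functional groups, with 2639 TPM in replicate 1 and 1862 TPM in replicate 2, or 37.0% and 27.4% of the members' sum. Cks2 and Cks1b, small proteins that bind Cdk kinases and help them engage phosphorylated substrates, had the highest means of all members. Cks2 (chr13:51645232-51650660) was at 701 and 522 TPM (612 ± 127, SD, n = 2). Cks1b (chr3:89415472-89418383) was at 795 TPM in replicate 1 and 411 TPM in replicate 2 (603 ± 272, n = 2). They ranked 255 and 259 among all genes, and which of the pair was higher differed between the libraries. Cdk1 (chr10:69335146-69352938), the kinase that drives entry into mitosis, was at 503 and 337 TPM (420 ± 117, n = 2).

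Among the cyclins, Ccna2, the A-type cyclin of S and G2 phases, was at 149 and 190 TPM. Ccnb1, the main mitotic B-type cyclin, was at 180 and 263 TPM. Ccnb2, the B-type cyclin associated with the Golgi, was at 280 TPM in replicate 1 and 92.2 TPM in replicate 2. Ccnb1 therefore stood at 0.645 of Ccnb2 in replicate 1 and at 2.86 times Ccnb2 in replicate 2, while the ratio of Cdk1 to the sum of these 3 cyclins was steadier at 0.825 and 0.617. Cdkn3, a phosphatase that acts on Cdk kinases, was low in both libraries at 30.6 and 18 TPM. Cdc25c, a phosphatase that activates Cdk1, had 1 read in replicate 1 and 1539 reads in replicate 2, or 0.02 and 28.4 TPM. Its share of reads was 1571 times higher in replicate 2, with a 95% counting interval from 282 to 62099. That interval covers read counting only, since reads that PCR made from the same molecule are not independent.

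The mitotic kinases and the chromosomal passenger complex held 864 and 1001 TPM in 6 genes. Plk1, a kinase of centrosome maturation and of many later steps, was at 164 and 199 TPM (182 ± 24.7, n = 2). Aurka, the Aurora kinase of the spindle poles, was at 151 TPM in replicate 1 and 67.5 TPM in replicate 2. Aurkb, the Aurora kinase of centromeres and midzone, was at 153 and 133 TPM, so the Aurora pair was level in replicate 1 (Aurka over Aurkb 0.985) and not in replicate 2 (0.506). Aurkb works in a complex with Birc5 (survivin), Cdca8 (borealin) and the scaffold Incenp. Birc5 was at 227 and 432 TPM and Cdca8 at 149 and 90.2 TPM. Incenp was the lowest of the complex in both libraries, at 18.7 TPM in replicate 1 and 78.3 TPM in replicate 2. The order Birc5, Aurkb, Cdca8, Incenp was the same in both libraries, while Incenp over Aurkb was 0.122 and 0.587.

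The 8 checkpoint and anaphase genes held 1171 and 1278 TPM, and 7 of them were lower in replicate 1 relative to the median gene, or 5 relative to the spike-ins. Ube2c (chr2:164769898-164778822), the ubiquitin-conjugating enzyme of the anaphase-promoting complex, was the third highest member at 580 and 458 TPM (519 ± 86.3, n = 2). Cdc20, the activator of that complex in mitosis, was at 104 and 157 TPM, and Pttg1, the securin that holds separase inactive, was at 102 and 172 TPM. The checkpoint proteins Mad2l1 and Bub3, which with Bub1b form the inhibitor of Cdc20, were high and close between the libraries: Mad2l1 was at 120 and 125 TPM (122 ± 3.44, n = 2) and Bub3 at 154 and 190 TPM. Bub1b was at 57.3 and 82.8 TPM. The kinases at the head of the checkpoint were lower, with Ttk at 37.4 and 51.7 TPM and Bub1 at 16.6 and 41.5 TPM. In both libraries the order was thus Bub3, Mad2l1, Bub1b, Ttk, Bub1 from high to low.

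The 12 centromere and kinetochore genes held 991 and 888 TPM. Cenpa, the histone H3 variant that marks centromeres, led them at 257 and 211 TPM (234 ± 32.0, n = 2). Of the inner kinetochore proteins that sit on Cenpa chromatin, Cenph was at 109 and 93.9 TPM, Cenpn at 61.2 and 51.0 TPM, Cenpw at 69.2 and 51.3 TPM and Cenpm at 22.0 and 21.4 TPM. Those 4 lay within 2-fold between the libraries. Cenpk, which binds Cenph in the same assembly, was at 70.7 TPM in replicate 1 and 20.6 TPM in replicate 2. Of the large proteins of the outer corona, Cenpf was at 60.9 and 64.9 TPM and the motor Cenpe at 17.8 and 38.5 TPM.

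The Ndc80 complex, the main microtubule coupler of the kinetochore, is built from equal copies of Ndc80, Nuf2, Spc24 and Spc25. Their transcripts were not equal. Spc24 was at 136 and 149 TPM, Spc25 at 118 and 94.8 TPM, Nuf2 at 50.7 and 86.1 TPM, and Ndc80 at 19.6 TPM in replicate 1 and 4.89 TPM in replicate 2. Ndc80 was the lowest subunit in both libraries and had 1217 and 302 reads. Nuf2, its direct partner, stood at 2.59 times Ndc80 in replicate 1 and at 17.6 times in replicate 2, and Spc24 at 6.94 and 30.5 times.

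The 8 kinesins were the lowest group by median, with a median mean of 28.3 TPM and sums of 305 and 458 TPM. Kif22, a chromokinesin that pushes chromosome arms to the spindle equator, was far above the rest at 179 and 193 TPM (186 ± 10.1, n = 2). Kif11, the motor that slides spindle poles apart, was at 21.2 and 36.4 TPM, and Kifc1, a minus-end motor that bundles spindle microtubules, at 18.2 and 37.2 TPM. The motors of the spindle midzone were mixed. Kif20b was at 18.6 and 19.6 TPM, Kif20a at 32.6 and 91.7 TPM, Kif23 at 12.2 and 51.6 TPM, and the chromokinesin Kif4 at 23.4 and 8.02 TPM. Relative to the median gene, 7 of the 8 kinesins were lower in replicate 1, all but Kif4, and relative to the spike-ins 5 were. Kif2c (chr4:117159639-117182639), which depolymerises microtubule ends at centromeres, had 0 reads in replicate 1 and 1653 reads, or 20.5 TPM, in replicate 2. Against the limit of 3 reads that a count of 0 allows in replicate 1, its read share was at least 563-fold higher in replicate 2. That bound, too, covers read counting only and is no bound on molecules in the tissue. The deposited credibility bounds of Kif2c were 0.123 to 0.743 TPM in replicate 1 and 19.6 to 21.7 TPM in replicate 2, which allow a smaller difference in TPM.

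Of 3 spindle assembly factors, Tpx2, which activates Aurka on microtubules, was at 68.9 and 42.2 TPM, and Nusap1, a microtubule-bundling protein, at 56.7 and 67.2 TPM. Hmmr, a spindle and hyaluronan-binding protein, was at 20.9 TPM in replicate 1 and 94.0 TPM in replicate 2, or 4.50-fold higher in replicate 2.

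The condensin and chromosome structure group held 849 and 909 TPM in 7 genes. Top2a, the topoisomerase that untangles sister DNA, was its highest gene at 248 and 347 TPM (298 ± 70.2, n = 2), with nearly equal reads of 18733 and 18846. Mki67 encodes Ki-67, which coats mitotic chromosomes, and was at 21.6 and 66.1 TPM. Condensin I has an Smc2 and Smc4 core with the subunits Ncapd2, Ncapg and Ncaph. Smc2 was at 276 and 143 TPM and Smc4 at 133 and 245 TPM, so their ratio was 2.07 in replicate 1 and 0.582 in replicate 2. In reads the ratio was 0.940 and 0.521, below 1 in both libraries. The TPM ratio rests on the assigned transcripts, since a noncoding transcript of 643 bases took most of the abundance of Smc2. Ncaph was at 45.5 and 51.4 TPM and Ncapg at 73.2 and 51.0 TPM. Ncapd2 (chr6:125168007-125191701) had 2186 reads in replicate 1 and 132 in replicate 2, at 51.7 and 5.63 TPM, and was 9.18-fold higher in replicate 1.

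The 4 cytokinesis genes held 159 and 199 TPM. Prc1, which bundles midzone microtubules, was at 76.8 and 91.7 TPM, and Racgap1, the partner of Kif23 in centralspindlin, at 48.3 and 87.7 TPM. Ect2, the exchange factor that activates RhoA at the equator, was at 18.1 and 11.4 TPM, and Anln, a scaffold of the contractile ring, at 15.9 and 8.05 TPM. The first pair was thus above the second pair in both libraries. Racgap1 stood at 3.95 times Kif23 in replicate 1 and 1.70 times in replicate 2.

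The libraries were then set against each other gene by gene, as the log2 ratio of TPM + 1 in replicate 1 over replicate 2, centred on the median of all genes with a mean of at least 10 TPM. Replicate 1 was at least 2-fold higher for 6 of the 56 members (10.7%), against 25.8% of all 6801 genes with a mean of at least 10 TPM. These were Ccnb2, Aurka, Cenpk, Ndc80, Kif4 and Ncapd2. Replicate 2 was at least 2-fold higher for 9 members (16.1%), against 25.2% of all genes. These were Cdc25c, Incenp, Bub1, Cenpe, Kif20a, Kif23, Kif2c, Hmmr and Mki67. The other 41 members lay within 2-fold. The median ratio of the members was -0.10, with 24 positive and 32 negative values. Centred on the spike-ins instead, the median was 0.30 and the calls 13 and 7, where 33% and 19.9% of all genes were called, so the direction of the median rested on the centring.

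**Figure D3:**
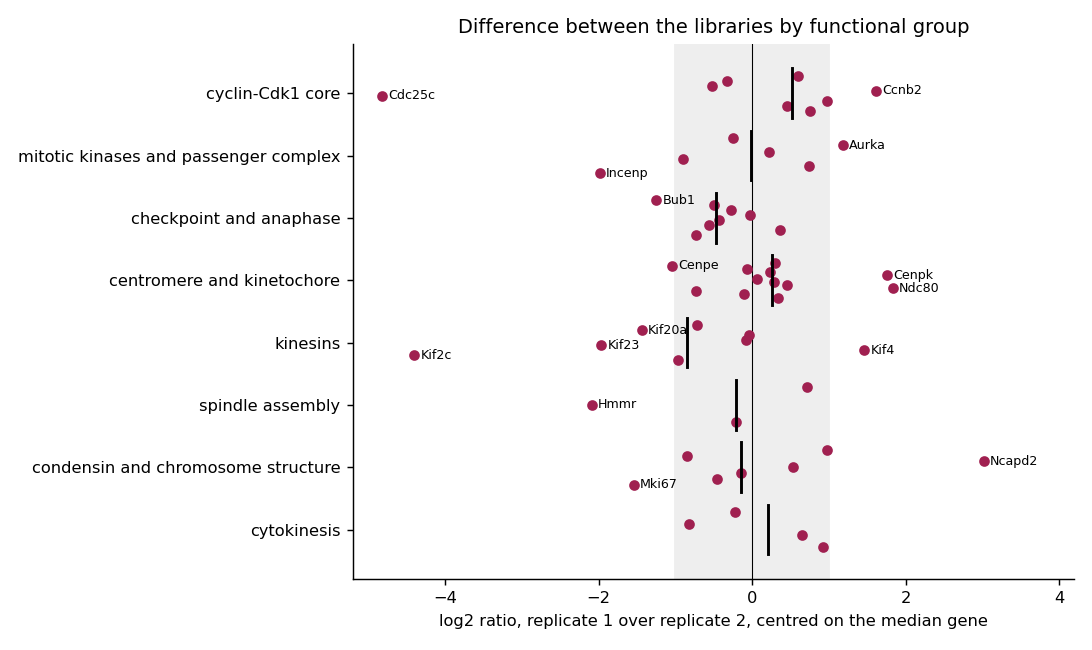
Centred log2 ratio of replicate 1 over replicate 2 (horizontal axis) for each of the 56 members by functional group, with the 2-fold range shaded and the group median as a bar. Of the kinesins, 7 of 8 lie below 0 with a median of -0.84 (5 of 8 and -0.45 when centred on the spike-ins), and Cdc25c, Kif2c and Ncapd2 lie farthest out.

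The spread went with the level. Of 20 members with a mean from 10 to 50 TPM, 4 were past 2-fold towards replicate 1 and 7 towards replicate 2, where 64.9% of all genes in the band were past it either way. Of 12 members from 50 to 100 TPM, 0 and 2 were past it, against 43.5% of genes. Of 15 members from 100 to 200 TPM, 2 and 0 were past it, against 27.9% of genes. None of the 9 members from 200 TPM up was past it, where 15.3% of genes from 200 to 500 TPM and 1.27% of those from 500 TPM up were. In the 3 bands under 200 TPM the members' median absolute ratio was 1.15, 0.52 and 0.32, each below the 1.73, 0.85 and 0.62 of all genes in the band. In the 2 upper bands it was 0.56 and 0.45, above the 0.45 and 0.23 of all genes.

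Across the 56 members, the log2(TPM + 1) values of the libraries had a Pearson r of 0.73 and a Spearman rho of 0.83. Over the 6801 genes with a mean of at least 10 TPM, the range of all members, the values were 0.40 and 0.52. Over 2651 genes with a mean of at least 50 TPM, a level that 36 members reached, they were 0.65 and 0.63. These describe genes within a pair of libraries, and genes are not independent replicates. The group medians of the centred log2 ratio ran from -0.84 for the kinesins and -0.46 for the checkpoint genes to 0.26 for the kinetochore genes and 0.53 for the cyclin-Cdk1 core. With spike-in centring the same 4 medians were -0.45, -0.07, 0.65 and 0.92. Length moved with the ratio among the members. Their log2 ratio and effective length, the deposited length in bases in which a fragment can start, had a rho of -0.40 (n = 56), against -0.04 over all 6801 genes. The 9 members higher in replicate 2 had a median effective length of 3118 bases, the 6 higher in replicate 1 had 1606 bases, and the 41 within 2-fold had 1964 bases. Of 12 members of at least 3000 bases, 9 were relatively lower in replicate 1, with a median log2 ratio of -0.88, where 53.9% of 1188 genes of that length were, and with spike-in centring 8 of the 12 were. The part of length in these differences was not tested. Level moved with length as well: mean TPM and effective length had a rho of -0.47 over the members and -0.37 over all 6801 genes. The part of length in the order of groups and genes by level, such as the low median of the kinesins, was not tested either.

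**Figure D4:**
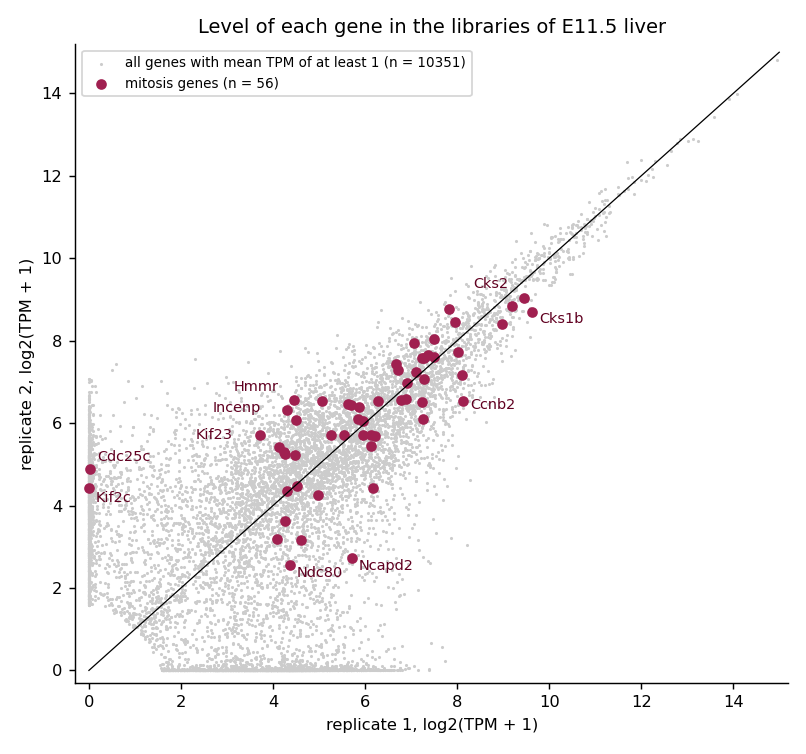
Level of each gene as log2(TPM + 1) in replicate 1 (horizontal axis) and replicate 2 (vertical axis), for the 10351 genes whose mean TPM was 1 or more (grey) and the 56 mitosis genes (red), with the line of equal values. Members at high levels such as Cks2 lie near the line, and Cdc25c and Kif2c lie on or near the vertical axis.

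The tables also split each gene's abundance over its annotated transcripts. Of the members, 18 had a single annotated transcript and 37 had several with reads in both libraries. The transcript with the highest TPM was the same in both libraries for 28 of these 37 (75.7%), against 62.5% of 4445 genes with a mean of at least 10 TPM. Among members with a mean of at least 100 TPM it was the same for 16 of 18, against 85.8% of 1081 genes. In 13 members 1 transcript held at least 90% in both libraries, among them Ube2c, Cks1b, Birc5 and Kif20a. Leading transcripts were protein coding in 33 of the 37 in replicate 1 and in 31 in replicate 2. For the counts at 90% and of coding transcripts, the shares over all genes were not computed.

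The exceptions bear on the TPM of their genes, since an abundance assigned to a short transcript gives a high TPM from few reads. For Ncapg the coding transcript Ncapg-201 of 3698 bases held 99.4% in replicate 1 and 11.7% in replicate 2, where Ncapg-202, a retained-intron transcript of 468 bases, held 88.2%. Ncapg thus differed little in TPM, while its reads were 7758 in replicate 1 and 1121 in replicate 2, a log2 ratio of reads of 2.76. Ect2 showed the same pattern: Ect2-202 of 4024 bases led in replicate 1 with 79.6%, and a transcript of 712 bases held 100% in replicate 2, with 2102 and 206 reads and a log2 ratio of reads of 3.17. On reads, both would join the members at least 2-fold higher in replicate 1. For Ncapd2, retained-intron transcripts led in both: Ncapd2-204 with 27.0% in replicate 1, and Ncapd2-206 with 98.8% in replicate 2.

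In Smc2 a noncoding transcript of 643 bases, Smc2-203, was assigned 60.9% and 72.5% of the gene's abundance. Cenpf-201, a transcript of 609 bases annotated as subject to nonsense-mediated decay, was assigned 66.6% and 44.7%. Top2a was led by the full-length Top2a-201 (5221 bases) in replicate 1 with 42.2%, and by the noncoding Top2a-202 (632 bases) in replicate 2 with 36.5%. The higher TPM of Top2a in replicate 2 stood beside equal reads. Between coding transcripts, Cenpm-201 held 100% in replicate 1 and 0% in replicate 2, where Cenpm-202 held 100%, and the leading transcript also differed for Pttg1, Tpx2, Prc1 and Racgap1.

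**Figure D5:**
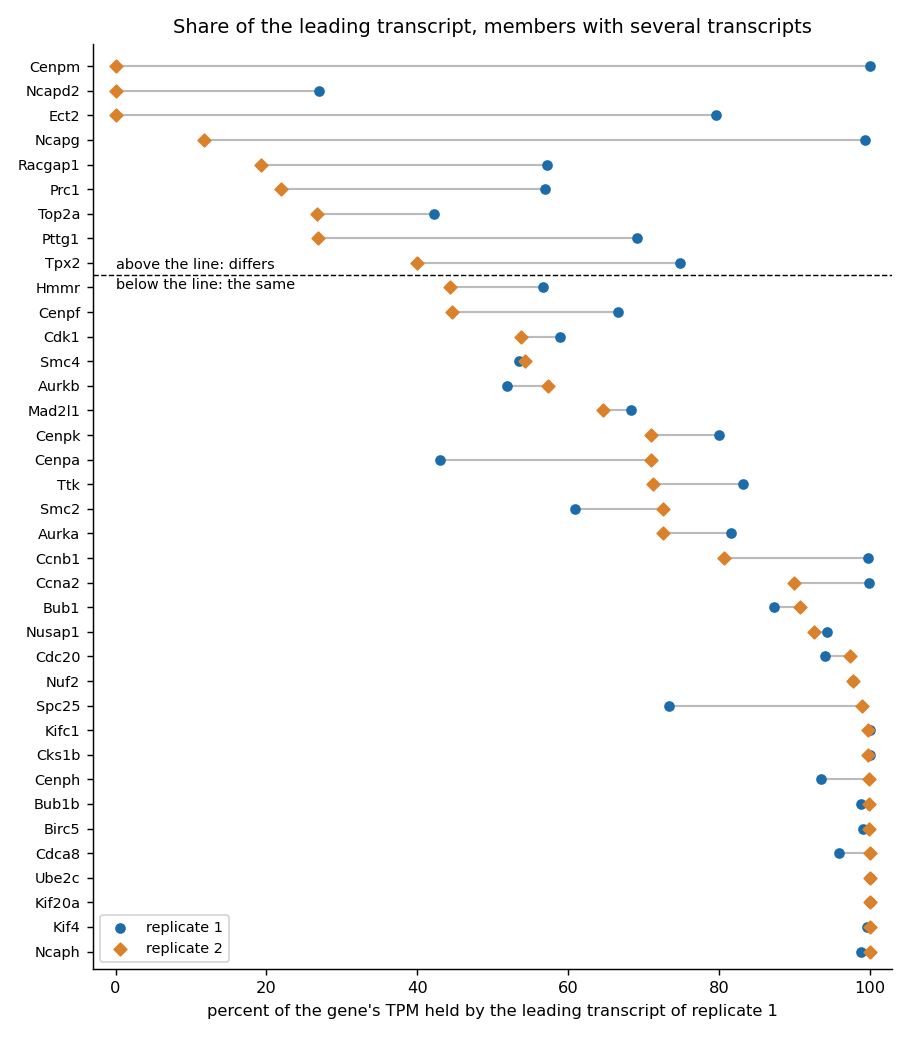
Percent of each gene's TPM held by the transcript that led in replicate 1 (horizontal axis), in replicate 1 (blue circles) and replicate 2 (orange diamonds), for 37 members with several transcripts. The 9 genes above the dashed line had another leading transcript in replicate 2, and for Cenpm the share was 100% in replicate 1 and 0% in replicate 2.

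The annotated gene spans of 10 members, introns included, overlap that of another detected gene. Read positions were not examined, so whether any reads lie in shared sequence is not known. Whether the counting used strand is not given in the sources used here. For Ccna2, Bub3, Cdc20, Cenpk, Kif20a, Kif4, Nusap1, Ncapg and Prc1 the other gene is on the other strand, such as Elovl1 beside Cdc20 at 213 and 106 TPM. Reads in sequence shared by both could not be told apart without strand. For Top2a the other gene is a small nucleolar RNA on the same strand. Fractional counts, which mark reads shared between features, were found for 11 members (tolerance 0.005), among them Ccnb1, Cks2, Plk1 and Top2a.

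The genes that work with the members were described from lists chosen by function. Of 16 subunits and regulators of the anaphase-promoting complex, 13 reached 1 TPM in both libraries, and the median mean was 55.3 TPM. Replicate 1 was at least 2-fold higher for 6 (37.5%) and replicate 2 for 2 (12.5%), against 25.8% and 25.2% of all genes with a mean of at least 10 TPM. Anapc11, its RING subunit, was at 159 and 322 TPM and Anapc5 at 260 and 86.2 TPM, while Anapc10 was under 1 TPM in both. All 16 cohesin genes were detected in both libraries (median mean 26.5 TPM), and 0 were past 2-fold towards replicate 1 (0%) and 7 towards replicate 2 (43.8%), against 25.8% and 25.2% of all genes. Centred on the spike-ins, 1 and 5 were, where 33% and 19.9% of all genes were called. Cdca5, the sororin that keeps cohesin on DNA, was at 83.4 and 146 TPM, and Smc1a at 105 and 96.8 TPM.

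Of 31 further kinetochore and centromere genes, 22 reached 1 TPM in both libraries. Their median mean was 19.0 TPM, and 8 (25.8%) and 9 (29.0%) were past 2-fold, near the 25.8% and 25.2% of all genes. Zwint, a partner of the Knl1 scaffold, was at 412 and 123 TPM and Cenpx at 153 and 121 TPM, and Cenpu and Spdl1 were under 1 TPM in both. Of 10 further regulators of Cdk1, Arpp19, an inhibitor of the phosphatase that opposes Cdk1, was at 276 and 233 TPM and Ccnf at 92.7 and 23.1 TPM. Wee1, the kinase that holds Cdk1 inactive, was listed at 0 in both libraries, and Mastl, which activates Arpp19, was at 0.01 TPM in both. Of a list of 8 genes with the further kinesins and the centriole protein Cenpj, 4 were detected in both, all of them kinesins. The highest were Kif2a at 20.2 and 46.2 TPM and Kif15 at 8.86 and 45.0 TPM, and Kif18b and Kif3b were under 1 TPM in both. The 3 genes particular to condensin II were detected in both (median mean 12.9 TPM), led by Ncaph2 at 52.3 and 76.5 TPM and Ncapd3 at 17.0 and 8.77 TPM. A list of 26 genes, mostly of the centrosome and spindle poles but also holding Cdca2, Cdca3 and Kifap3, was detected in full in both (median mean 39.5 TPM). Its highest genes were Cdca3, which is not a centrosome component, at 262 and 291 TPM and Haus1, a subunit of the microtubule-branching augmin complex, at 94.5 and 155 TPM.

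Of 21 genes of the transcription factors that act on G2 and M phase promoters (the MuvB complex, B-Myb, FoxM1, NF-Y and the E2F family), 12 reached 1 TPM in both libraries. Their median mean was 18.8 TPM, and 6 each way (28.6%) were past 2-fold, near the 25.8% and 25.2% of all genes. Rbbp4, a histone-binding subunit of MuvB, was at 164 and 262 TPM, and E2f4 at 213 and 158 TPM. Foxm1, an activator of G2 and M phase genes, was listed at 0 in both libraries, and E2f5 was under 1 TPM in both. The 32 DNA replication genes had a median mean of 128 TPM, above the members' 65.5 TPM, with 28 detected in both libraries. Of the 32 genes 10 (31.3%) and 6 (18.8%) were past 2-fold, against 25.8% and 25.2% of all genes. Centred on the spike-ins, 15 and 5 of them were, where 33% and 19.9% of all genes were called. The highest replication genes were Pcna at 349 and 339 TPM and Rrm2 at 296 and 324 TPM, close to Top2a and below Cks2, Cks1b and Ube2c.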

How the data were processed

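RNA-seq was analysed from 2 libraries of 1 group. Per the file headers, each library has a gene table and a transcript table with estimated values, on assembly mm10 with GENCODE release M4. Neither the alignment and quantification programs nor the strand setting are named (not given in the sources used here). Deposited by the authors were expected counts (estimated reads that need not be whole), TPM values (per length, scaled to a fixed sum), FPKM values (per length and depth, used for the order of levels), posterior mean TPM values, effective lengths and credibility bounds, and the percent of each gene's abundance given to each transcript. For 4 members, Cenpf, Kif20b, Mad2l1 and Cenpm, the deposited bounds of both libraries overlapped, and the share over all genes was not computed. They describe the estimate within a library, not the spread between samples.

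From these, means, SDs and centred log2 ratios (pseudocount 1) were computed with Python 3.11.15, numpy 2.4.6, pandas 2.3.3, scipy 1.17.1 and matplotlib 3.10.9. The ratio, centring and call steps were tested on simulated reads with planted changes and counting noise only. The noise of a very small draw of RNA and of PCR was not simulated, so the test says nothing about how far such noise enters the calls. A count of 0 was read as up to 3 reads, which is 0.0901 CPM for replicate 1 and 0.092 CPM for replicate 2. Symbols, transcript types and coordinates came from release M21. All members were named. Of other lists, the 2 highest genes by mean and up to 3 under 1 TPM in both libraries were named, plus subunit ratios and markers at 0. The members and lists were chosen with earlier results of these data known. Alternatives were another pseudocount, spike-in and other centring, posterior means, reads, other minimums and folds, and each library by itself. The labels call the libraries biological replicates of pooled tissue and do not say that the pools shared no embryos.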

Additional observations from a re-analysis of the deposited data

Results flagged for a closer look

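Reads were also assigned to near copies of members, which are not counted among the 56 members above. Ccnb1-ps, a processed pseudogene of Ccnb1, had 62.7 reads in replicate 1 and 81.2 reads in replicate 2, or 1.79 and 2.33 TPM, above the limit of 3 reads that a count of 0 allows. Its counts were fractional, and Ccnb1 itself had 12732 and 17615 reads. Cks1brt, a copy of Cks1b, had 0 reads in replicate 1 and 4 reads in replicate 2. Kif22-ps had 2 and 0 reads, and Ccnb2-ps and Kif4-ps had 0 in both libraries.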

How the results depend on the processing

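The members' share of transcripts was 0.696% in TPM and 1.01% in expected counts, and ran from 0.680% to 0.712% with either library left out. The median level on the log2(TPM + 1) scale was 6.02 with each gene averaged over the libraries. It was 6.13 in replicate 1 alone and 6.42 in replicate 2 alone, both above that value. The 38 spike-ins had a median log2 ratio of -0.39 relative to the median gene. Centring on them moved the members' median ratio to 0.30, against -0.10, and the members at least 2-fold higher in replicate 1 to 13, against 6. Those higher in replicate 2 were then 7, all among the 9 of the median centring. Over all genes the calls were 2245 and 1350 with spike-ins, against 1758 and 1716. With the 36 members of at least 50 TPM alone, 2 were past 2-fold in each direction. Of all 2651 genes of at least 50 TPM, 15.8% were past it towards replicate 1 and 13.7% towards replicate 2. At 4-fold 1 and 3 of all members were called, and the share of all genes past 4-fold was not computed. No called member changed sign under the 5 alternatives of scale, centring or pseudocount. The count of members with the same leading transcript stayed at 28 with posterior means and without transcripts under 300 bases. The order of member levels in FPKM had a rho of 1 with that in TPM. Within a library these measures differ only by a constant factor, so this order is no check of the levels. Members under 50 TPM had few reads in places, such as 132 for Ncapd2 in replicate 2, and their ratios are the least certain. No paired analysis was possible because there is 1 group.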
